A study of Mus musculus with 6 samples.

Results

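Aminoacyl-tRNA synthetases are the enzymes that join each amino acid to its transfer RNA. The 37 genes described here are the protein-coding entries of the deposited table whose symbols follow the synthetase pattern, namely a 1-letter amino acid code with "ars" and an optional suffix, together with Eprs, Farsa and Farsb. They are 37 of 54532 genes in the table. By symbol, 20 encode cytosolic enzymes and 17, those with the suffix 2, encode mitochondrial ones. RNA came from free-floating neurospheres grown for 6 days from neural progenitor cells of C57BL/6 mouse embryos at E14.5, with 20 ng/ml each of EGF and bFGF in the medium. There were 3 libraries of WT spheres (numbered 3, 6 and 7) and 3 of Ash2l cKO spheres, called KO here (numbered 1, 2 and 3). D6-Cre, a Cre transgene active in the dorsal forebrain, drove the deletion of Ash2l, which encodes a shared subunit of the COMPASS histone H3 lysine methyltransferases. By their source label the spheres derive from dorsal cortex, while the growth protocol describes dissecting the lateral ventricles' lateral walls, so the region is uncertain. The labels do not say whether the WT embryos carried Cre or floxed alleles, nor which libraries came from different embryos or cultures. The p-values therefore measure the spread among these libraries, part of which may be technical.

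Cells keep separate sets of these enzymes for protein synthesis in the cytosol and in mitochondria, although all the mitochondrial enzymes are encoded in the nucleus. Gars and Kars each encode both the cytosolic and the mitochondrial form, and mitochondria make glutaminyl-tRNA by amidation instead of with an enzyme of their own. In animals, several of the cytosolic enzymes are held in a multi-synthetase complex by the scaffold proteins encoded by Aimp1, Aimp2 and Eef1e1. Many cytosolic synthetase genes are known targets of ATF4, the transcription factor of the amino acid response, which binds C/EBP-ATF response elements together with C/EBP partners.

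Because many cytosolic members moved together, their promoters were searched for a response element in the RefSeq windows of 250 bases before to 50 bases after each transcript start (GRCm38.p6). Of the 37 genes, 27 had a window there, 13 of them cytosolic and 14 mitochondrial. Cars, Hars, Lars, Nars, Rars, Vars, Wars, Hars2 and Pars2 were among those with none. The motif TGATGNAAN, searched on both strands, was present in the windows of 5 of 13 cytosolic genes (38.5%), namely Aars, Gars, Iars, Tars and Yars, and in 0 of 14 mitochondrial ones. It was present for 2.65% of the 11659 tested genes with a window and for 4.5% of all 27025 genes with a window. For each of these genes 1 matched site is shown with 10 flanking bases on each side, on the strand of the gene and with the match in capitals, as these 5 genes are among those that rose in KO. Of the 13 cytosolic genes with a window 10 rose, and the motif was in 5 of those 10 and in 0 of the other 3. A group of 3 genes is too small for this split to tell the groups apart. None of the 6 matches shared bases with a match to another motif searched.
Aars, chr8:111033840-111033868, plus strand: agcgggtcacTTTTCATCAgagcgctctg
Gars, chr6:55037960-55037988, plus strand: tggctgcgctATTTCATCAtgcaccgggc
Iars, chr13:49682126-49682154, plus strand: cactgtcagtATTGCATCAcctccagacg
Tars, chr15:11399656-11399684, minus strand: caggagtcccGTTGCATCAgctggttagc
Yars, chr4:129189896-129189924, plus strand: cgagctcagcTGATGCAACccgacgggac
The Yars match reads in the direction of the motif and the other 4 shown in the opposite direction. The first base of the match lay 31 bases before the start in Gars and 16 before it in Tars, and 3 bases after it in Yars, 6 after it in Iars and 8 after it in Aars.

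The stretches of 250 bases before the RefSeq start are shown for Gars, which had the largest rise among genes with a window, and for Dars, the one member that fell. Capitals mark matches to any motif searched.
Gars, chr6:55037751-55038000, plus strand: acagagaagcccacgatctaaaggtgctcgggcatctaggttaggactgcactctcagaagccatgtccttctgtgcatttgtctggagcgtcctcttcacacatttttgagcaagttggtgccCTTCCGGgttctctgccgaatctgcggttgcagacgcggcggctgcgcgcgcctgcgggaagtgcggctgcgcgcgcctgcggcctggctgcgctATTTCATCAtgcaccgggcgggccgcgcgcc
Dars, chr1:128417417-128417666, minus strand: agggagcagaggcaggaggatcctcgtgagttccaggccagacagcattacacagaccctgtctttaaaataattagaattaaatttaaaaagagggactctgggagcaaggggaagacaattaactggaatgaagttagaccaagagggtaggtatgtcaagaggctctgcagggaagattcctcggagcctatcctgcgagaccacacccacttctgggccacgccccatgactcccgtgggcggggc
The Gars stretch held the response element and, further from the start, an ETS motif (CCGGAAG, on the opposite strand). The Dars stretch held none of the motifs searched, which says only that those letters are not in it. The E-box CACGTG, bound by Myc and related factors, was in the windows of 4 of 13 cytosolic genes (Aars, Farsb, Iars and Tars, 30.8%) and of 1 of 14 mitochondrial genes (Ears2, 7.14%), against 11.3% of tested genes. The NRF1 motif, GCGCA and GCGC with any 1 base between them, was found for 3 cytosolic and 2 mitochondrial genes (23.1% and 14.3%, against 10.8%). The ETS motif was found for 5 and 4 (38.5% and 28.6%, against 18.4%), and the CCAAT box for 7 and 6 (53.8% and 42.9%, against 42.8%). Among the 10 cytosolic genes that rose and the other 3, the E-box was in 4 and 0 and the NRF1 motif in 3 and 0. The ETS motif was in 4 and 1, and the CCAAT box in 6 and 1. The split by rise was thus alike for several motifs. These are matches of letters, not measured binding.

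Total counts were 16764480 to 21983659 per library. Ash2l, the targeted gene, stood at 113 ± 3.56 CPM (counts scaled to a fixed library total after TMM normalisation) for WT against 95.7 ± 8.44 CPM for KO (SD, n = 3 each). This did not pass edgeR's quasi-likelihood test at a Benjamini-Hochberg adjusted p under 0.05, the threshold for every call here (log2 fold change -0.24, SE 0.10, adjusted p = 0.119). The labels do not give the deleted exons, so a count over the whole gene cannot show how many cells had recombined. WT 3 stood apart from the other WT libraries on the first principal component of all genes (-25.5, against -81.7 and -85.7, with KO at 53.5 to 76.8). All 18 listed cell cycle genes rose, with a mean log2 CPM of 4.16 in WT 3, 3.24 in WT 6, 3.07 in WT 7 and 6.68 to 7.13 in KO. Over all tested genes 13.5% rose and 15.5% fell. Of 8 neural progenitor markers 1 rose and 3 fell, and their sum was 4607 to 6378 CPM for WT against 4321 to 6932 CPM for KO. Of 8 neuron markers 2 rose (1408 to 2504 against 2498 to 3672 CPM), of 8 astrocyte markers 7 fell (2140 to 7259 against 579 to 887 CPM), and of 8 oligodendrocyte markers 6 fell (3819 to 4560 against 1112 to 2040 CPM). Of 8 mural and meningeal markers 2 rose (36.2 to 49.7 against 42.3 to 695 CPM). The 7 microglia markers summed to at most 21.9 CPM (P2ry12 was at 0 in at least 1 library) and the 6 endothelial markers to at most 6.97 CPM (Cdh5 and Cldn5 were at 0 in at least 1 library). The part of this shift in cell makeup and cycling in the results below was not tested, and in bulk RNA fewer cells of a type and less RNA per cell cannot be told apart.

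Cytosolic synthetase transcripts were higher in KO spheres across most of the family, and mitochondrial ones were mostly within the spread of the libraries. All 37 genes passed the filter on low counts, and their lowest count in any library was 168. Of the 20 cytosolic genes 15 rose (75.0%) and 1 fell, with a median log2 fold change of 0.65, or 1.57-fold. Of the 17 mitochondrial genes 1 rose (5.88%) and 0 fell in the edgeR quasi-likelihood test, with a median of 0.15, or 1.11-fold. Over all 16606 tested genes 29.0% passed, 13.5% higher and 15.5% lower, and the median was 0.00. At an unadjusted p under 0.05 there were 3 mitochondrial genes higher and 2 lower (21.3% and 22.4% of all tested genes). By DESeq2 2 passed as higher and 0 as lower (14.7% and 13.9% of all genes), and by limma-voom 2 passed in each direction (24.9% and 23.6%). The CPM of WT and KO did not overlap for 17 cytosolic genes with KO higher and 1 lower, and for 5 mitochondrial genes higher and 2 lower. Over all tested genes 48.7% did not overlap, 23.5% with KO higher and 25.2% lower. No test was made over either list, so the gap between the medians is a description.

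**Figure D1:**
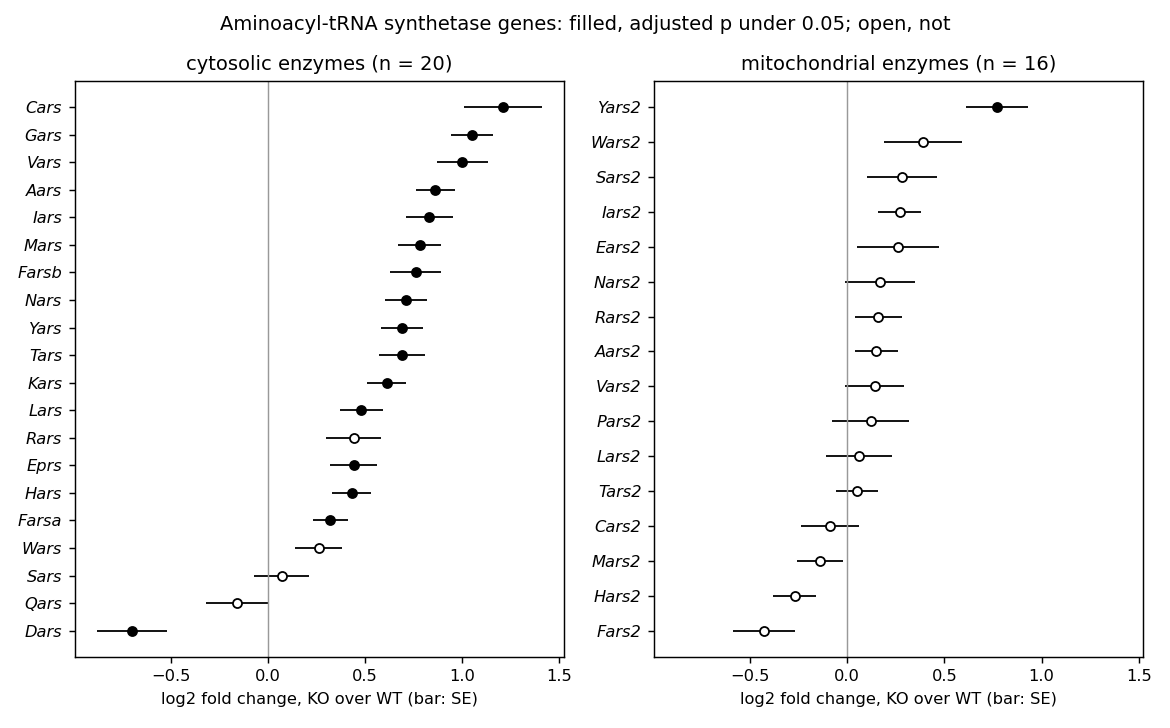
Log2 fold change of KO over WT with its standard error for 20 cytosolic (left) and 16 of the 17 mitochondrial (right) synthetase genes, filled where the adjusted p was under 0.05. On the left 15 genes are filled above 0 and Dars is filled below it, and on the right only Yars2 is filled.

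As a share of all counts, the cytosolic genes took 0.219%, 0.202% and 0.206% in WT libraries 3, 6 and 7, against 0.299%, 0.341% and 0.311% in KO libraries 1, 2 and 3. Every KO library thus lay above every WT library. The mitochondrial genes took 0.054%, 0.0502% and 0.0516% in WT and 0.0592%, 0.0608% and 0.0549% in KO. The groups did not overlap here either, with a smaller gap. Relative to the WT mean, the median cytosolic gene stood at 0.06, -0.03 and -0.03 on the log2 scale in WT 3, WT 6 and WT 7. In KO 1, KO 2 and KO 3 it stood at 0.51, 0.75 and 0.55. The median mitochondrial gene stood at -0.01, -0.04 and 0.02 in WT and 0.05, 0.28 and 0.10 in KO.

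**Figure D2:**
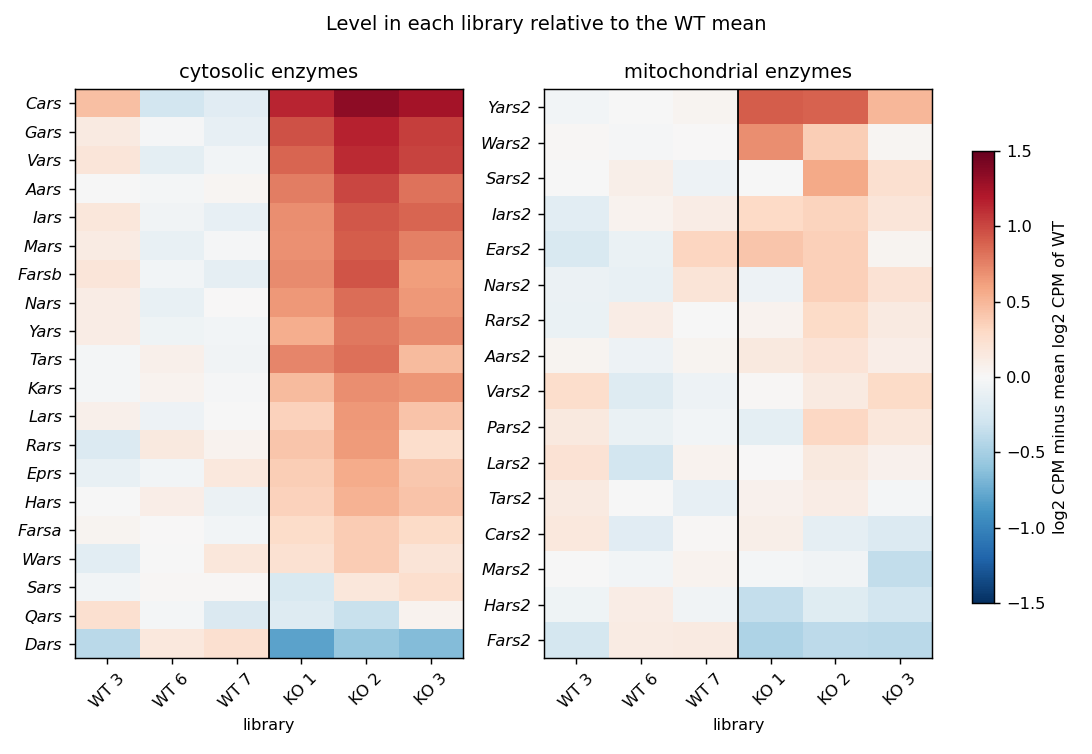
Log2 CPM of 36 of the 37 synthetase genes in each of the 6 libraries minus the gene's mean log2 CPM in WT (colour, red higher and blue lower), cytosolic genes on the left and mitochondrial genes on the right, ordered by fold change. The 3 KO columns are red for most cytosolic genes and blue for Dars.

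The cysteine enzyme gene Cars had the largest fold of the family. It measured 63.0, 38.0 and 40.8 CPM in WT libraries 3, 6 and 7, against 102, 117 and 109 CPM for KO libraries 1, 2 and 3, a 2.31-fold rise (log2 fold change 1.21, SE 0.20, adjusted p = 0.00648). WT 3 was the highest WT library for Cars, and the log2 fold change was 1.47 without it. Gars, for glycine, measured 116, 104 and 96.6 CPM for WT against 204, 235 and 216 CPM for KO, a 2.07-fold rise (1.05, SE 0.11, adjusted p = 0.00197). Its KO libraries were all well above its WT libraries, and as its gene also makes the mitochondrial glycine enzyme, the count covers both forms. Vars, for valine, measured 134, 107 and 115 CPM for WT against 217, 256 and 238 CPM for KO (2.00-fold, SE of the log2 fold change 0.13, adjusted p = 0.00284). Aars, for alanine, stood at 153, 151 and 157 CPM for WT, a narrow range, against 261, 307 and 270 CPM for KO (1.82-fold, 0.86, SE 0.10, adjusted p = 0.00261). These 4 genes, Aars, Cars, Gars and Vars, were also the ones that passed a test against a change of 1.5-fold, which 4.52% of all tested genes passed as higher and 4.64% as lower.

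A further 7 cytosolic genes rose by 1.53-fold to 1.78-fold, and their calls held whichever library was left out. Iars, for isoleucine, went from 89.2 ± 9.59 to 159 ± 13 CPM (SD, n = 3 each), and Mars, whose enzyme charges both initiator and elongator methionine tRNA, from 90.6 ± 7.51 to 155 ± 12.6 CPM. Their log2 fold changes were 0.83 (SE 0.12) and 0.78 (SE 0.11). The asparagine enzyme gene Nars rose from 138 ± 11 to 226 ± 16.9 CPM (0.71, SE 0.11), the tyrosine enzyme gene Yars from 98.9 to 111 CPM up to 150 to 179 CPM (0.69, SE 0.11), and the threonine enzyme gene Tars from 60.3 ± 2.71 to 96.9 ± 12.2 CPM (0.69, SE 0.12). Kars, for lysine in both compartments, rose from 126 ± 4 to 192 ± 16.5 CPM (0.61, SE 0.10). Adjusted p-values of these genes and Farsb lay between 0.00402 and 0.00778. The annotated spans of Mars and the stress gene Ddit3 overlap by 68 bases on opposite strands and that of Yars overlaps C77080 by 30 bases, with 17.1% and 11.1% as many reads in the neighbour, so a few reads could be shared.

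Phenylalanyl-tRNA synthetase is built from an alpha and a beta subunit, encoded by Farsa and Farsb, and the measured rise was larger for Farsb. Farsb measured 58.3, 49.9 and 46.9 CPM for WT against 84.2, 99.3 and 79.6 CPM for KO (1.70-fold, log2 fold change 0.76, SE 0.13). Farsa measured 84.4, 82.1 and 79.4 CPM for WT against 99.3, 107 and 100 CPM for KO (1.25-fold, 0.32, SE 0.09, adjusted p = 0.037). Within a library the ratio of Farsa to Farsb counts, which needs no scaling between libraries, was 1.45, 1.64 and 1.69 in WT and 1.18, 1.08 and 1.26 in KO. The ratio was lower in every KO library than in every WT library, and p = 0.1 is the smallest that an exact permutation test can give with 3 libraries a group. The Farsa call ended without any library other than WT 3 (log2 fold change 0.28 to 0.36, adjusted p = 0.0616 to 0.143), and also with no filter (adjusted p = 0.137) and in DESeq2 (adjusted p = 0.0674), while that of Farsb held.

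Smaller rises were measured for Lars, Eprs and Hars. The leucine enzyme gene Lars stood at 92.7, 83.2 and 87.8 CPM for WT against 112, 138 and 118 CPM for KO (1.39-fold, log2 fold change 0.48, SE 0.11, adjusted p = 0.0208). Eprs, which encodes a single protein charging both glutamate and proline tRNA, stood at 175, 183 and 210 CPM for WT against 244, 278 and 249 CPM for KO (1.36-fold, 0.44, SE 0.12, adjusted p = 0.0301). Groups of both genes did not overlap. The call of Eprs ended without any 1 of the 6 libraries (adjusted p = 0.0503 to 0.123), and that of Lars without WT 6, WT 7 or KO 2 (log2 fold change 0.39 to 0.47, adjusted p = 0.0686 to 0.0939). Rars, for arginine, stood at 52.7, 67.2 and 63.2 CPM for WT against 81.1, 94.9 and 73.0 CPM for KO, and did not pass (0.44, SE 0.14, adjusted p = 0.0551) except without KO 3 (0.55, adjusted p = 0.0476) and on some other scales. Wars, for tryptophan, at 98.5 ± 11.4 CPM for WT against 118 ± 7.93 CPM for KO (SD, n = 3 each), did not pass either (0.26, SE 0.12, adjusted p = 0.131).

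Dars, the aspartate enzyme gene (chromosome 1, 128363707 to 128417368, mm10, minus strand), went the other way. It measured 122, 180 and 191 CPM in WT libraries 3, 6 and 7, against 92.4, 109 and 103 CPM for KO libraries 1, 2 and 3. The 3 KO libraries were close to each other and below all WT libraries, and WT 3 lay between the groups. The log2 fold change was -0.70 (SE 0.18, adjusted p = 0.0273), so KO held 61.7% of the WT level. The call ended without any library other than WT 3 (log2 fold change -0.74 to -0.58, adjusted p = 0.0664 to 0.0971), and the log2 fold change was -0.87 without WT 3. Set against Kars, another class II enzyme of the complex, the ratio of Dars to Kars counts within a library was 0.996, 1.38 and 1.54 in WT and 0.532, 0.531 and 0.518 in KO. Its KO values nearly coincide. That they lie below all WT values follows from Dars being lower and Kars higher in every KO library, and adds no evidence.

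The serine and glutamine enzyme genes did not pass the test. Sars, which also charges the selenocysteine tRNA, measured 221, 231 and 230 CPM for WT against 194, 255 and 270 CPM for KO (log2 fold change 0.07, SE 0.14, adjusted p = 0.711), with KO libraries on both sides of WT. Qars measured 85.8, 71.1 and 62.2 CPM for WT against 63.3, 57.5 and 75.2 CPM for KO (-0.16, SE 0.16, adjusted p = 0.465), again with overlapping groups. Together with Dars, these were the cytosolic genes whose fold change stood nearest to or below 0.

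By place in the multi-synthetase complex, 5 of 8 cytosolic members known to sit in it rose (Eprs, Iars, Kars, Lars and Mars), Dars fell, and Qars and Rars did not pass, with a median log2 fold change of 0.46. Of the 12 outside it 10 rose, with a median of 0.70. The shares over all tested genes were 13.5% higher and 15.5% lower. Calls of Eprs, Lars and Dars inside the complex, and of Farsa and Hars outside it, ended in fits that left out a library. The difference between the 2 groups was not tested. Among the scaffolds, Eef1e1 measured 35.7, 38.0 and 34.8 CPM for WT against 71.6, 73.5 and 70.5 CPM for KO, a 1.99-fold rise (0.99, SE 0.10, adjusted p = 0.00148). Aimp2 rose 1.65-fold, from 14.8 ± 0.614 to 24.3 ± 2.27 CPM (0.72, SE 0.14, adjusted p = 0.0118), a call that ended without WT 7 or KO 2 (adjusted p = 0.0518 and 0.0533). Aimp1 stood at 68.0 ± 4.64 CPM for WT against 74.7 ± 9.87 CPM for KO and did not pass (0.14, SE 0.13, adjusted p = 0.433). Within a library the ratio of Aimp1 to Eef1e1 counts was 1.82, 1.93 and 1.89 in WT and 0.886, 1.08 and 1.16 in KO. With Eef1e1 already called higher and Aimp1 not called, this ratio adds no evidence.

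The family splits by structure into class I and class II enzymes, which have unrelated catalytic domains. Of the 9 cytosolic class I genes 6 rose (median log2 fold change 0.69), and of the 10 class II genes 8 rose (median 0.65), Eprs holding a domain of each class. The classes thus had like medians. Of 13 cytosolic genes widely described as induced by ATF4, 11 rose, with a median of 0.71, and Sars and Wars did not pass. Of the other 7, Farsa, Farsb, Hars and Kars rose, Dars fell, and Qars and Rars did not pass, with a median of 0.43. For comparison, 13.5% of all tested genes rose and 15.5% fell. These groupings come from general knowledge of the enzymes, and the differences between their medians were not tested.

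Among the mitochondrial enzymes Yars2, for tyrosine, was the one called. It measured 14.7, 15.1 and 15.6 CPM for WT against 28.5, 27.9 and 21.3 CPM for KO (1.71-fold, log2 fold change 0.77, SE 0.16, adjusted p = 0.0144), with a very narrow WT range and KO 3 the lowest of KO. The call ended without WT 6, KO 1 or KO 2 (adjusted p = 0.0511 to 0.06), with the log2 fold change at 0.72 to 0.77. Wars2 stood at 13.4, 13.1 and 13.3 CPM for WT against 21.5, 17.2 and 13.5 CPM for KO (0.39, SE 0.20, adjusted p = 0.183), high in KO 1 and level with WT in KO 3.

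Fars2 and Hars2 had the lowest fold changes of the mitochondrial genes. Fars2, for phenylalanine, measured 20.2, 26.4 and 26.6 CPM for WT against 17.5, 18.4 and 18.3 CPM for KO (log2 fold change -0.43, SE 0.16, adjusted p = 0.0789), and it passed without WT 3 (-0.55, adjusted p = 0.0205). Its annotated span overlaps the genes Nrn1 and Lyrm4 by 920 and 115 bases on the opposite strand. Over their whole length these genes hold 70.0% and 61.8% as many reads. Hars2 measured 51.0, 57.6 and 51.2 CPM for WT against 41.6, 46.8 and 44.0 CPM for KO (-0.27, SE 0.11, adjusted p = 0.0978). Every KO library lay below every WT library for both genes. Both passed as lower in limma-voom (adjusted p = 0.013 for Fars2 and 0.0434 for Hars2), which called 23.6% of all tested genes lower. A further 13 mitochondrial genes had log2 fold changes from -0.14 (Mars2) to 0.39 (Wars2), and none of these passed with TMM normalisation. Among them Iars2 was at 82.5 ± 8.01 CPM for WT against 99.5 ± 5.30 CPM for KO (SD, n = 3 each, log2 fold change 0.27, SE 0.11, adjusted p = 0.101), and Lars2 at 17.9 ± 3.02 and 18.6 ± 0.957 CPM (0.06, SE 0.17). In the edgeR test with library totals only, Iars2 passed as higher (0.33, adjusted p = 0.0463). Some reads of Iars2, Cars2 and Ears2 could be shared with Rab3gap2, Naxd and Ubfd1, whose spans overlap theirs by 2034, 984 and 89 bases on the opposite strand. Those neighbours hold 77.4%, 289% and 602% as many reads over their whole length, and reads in the shared stretches were not counted apart.

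Hars and Hars2, for histidine in the cytosol and in mitochondria, lie head to head on chromosome 18, and their annotated spans overlap by 198 bases at their starts (36783008 to 36783205, mm10). Hars measured 66.3, 71.0 and 62.5 CPM for WT against 84.6, 95.1 and 89.6 CPM for KO (1.35-fold, log2 fold change 0.43, SE 0.10, adjusted p = 0.02), a rise whose call ended without WT 6, WT 7 or KO 2 (0.38 to 0.47, adjusted p = 0.0589 to 0.0899). The ratio of Hars to Hars2 counts was 1.30, 1.23 and 1.22 in WT libraries 3, 6 and 7, against 2.03, 2.03 and 2.04 in KO libraries 1, 2 and 3. Libraries of a group thus had nearly the same ratio. Hars was higher and Hars2 lower in every KO library than in every WT library, so the ratio had to separate the groups. It is no further evidence, and an exact permutation test of 3 against 3 can give no p below 0.1. The kit's use of strand is not stated, so reads in the shared stretch could belong to either gene.

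Cytosolic and mitochondrial genes for the same amino acid were compared in 13 pairs, and in 10 of these the cytosolic gene had the higher log2 fold change, with a median difference of 0.56. The widest gap was that of Cars over Cars2, with a ratio of counts of 1.93, 1.47 and 1.38 in WT and 3.28, 4.43 and 4.30 in KO. Mars over Mars2 went from 1.66, 1.44 and 1.44 in WT to 2.46, 2.93 and 3.28 in KO, and Vars over Vars2 from 2.65, 2.90 and 2.89 to 5.12, 5.55 and 4.64. In these pairs the ratio was higher in every KO library than in every WT library. They were picked for their wide gaps in fold change, and each cytosolic gene had already been called higher. The separation of their ratios therefore adds no evidence. For tyrosine both genes rose, and the ratio of Yars to Yars2 was 7.51, 6.55 and 6.44 in WT and 5.28, 6.42 and 7.92 in KO, with overlapping groups. Serine and tryptophan were the other pairs compared in which the mitochondrial gene had the higher fold change, and their ratios overlapped between groups as well.

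**Figure D3:**
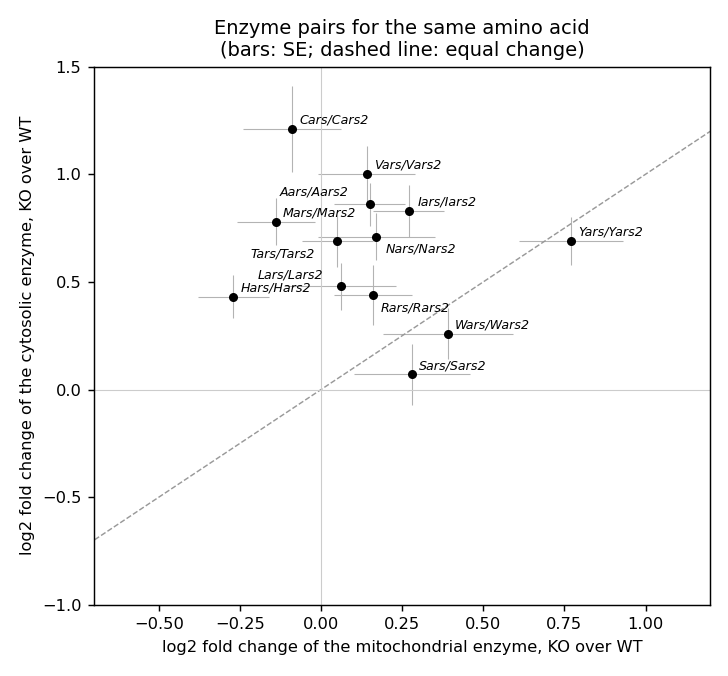
Log2 fold change of KO over WT for the cytosolic gene (vertical axis) against that of the mitochondrial gene (horizontal axis) for 13 amino acids, with standard errors and a dashed line of equal change. The 10 pairs above the line have the higher value for the cytosolic gene, and the pairs of Sars, Wars and Yars lie below it.

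Levels of different genes were compared only per gene length, as FPKM. The cytosolic genes had a median of 20.1 FPKM in WT, from 7.07 (Cars) to 51.4 (Nars), and the mitochondrial genes a median of 4.95 FPKM, from 1.58 (Lars2) to 12.2 (Hars2). In WT the order from the top was Nars at 51.4 ± 5.62, Sars at 43.3 ± 0.342, Dars at 36.7 ± 7.23, Gars at 33.2 ± 4.17 and Hars at 32.8 ± 2.21 FPKM (SD, n = 3 each). Sars lay above Dars in each WT library (43.0 to 43.7 against 28.5 to 42.1 FPKM), narrowly so in WT 7. Dars, Gars and Hars did not differ beyond their spread there. In KO the order was Nars at 87.8 ± 6.43, Gars at 71.4 ± 4.75, Sars at 47.5 ± 7.41, Mars at 46.4 ± 3.51 and Hars at 46.1 ± 2.36 FPKM, with Sars, Mars and Hars within their spread. Dars moved from place 3 to place 15 of the 37 genes. Cars rose from place 24 to 17 and Yars2 from 30 to 25.

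**Figure D4:**
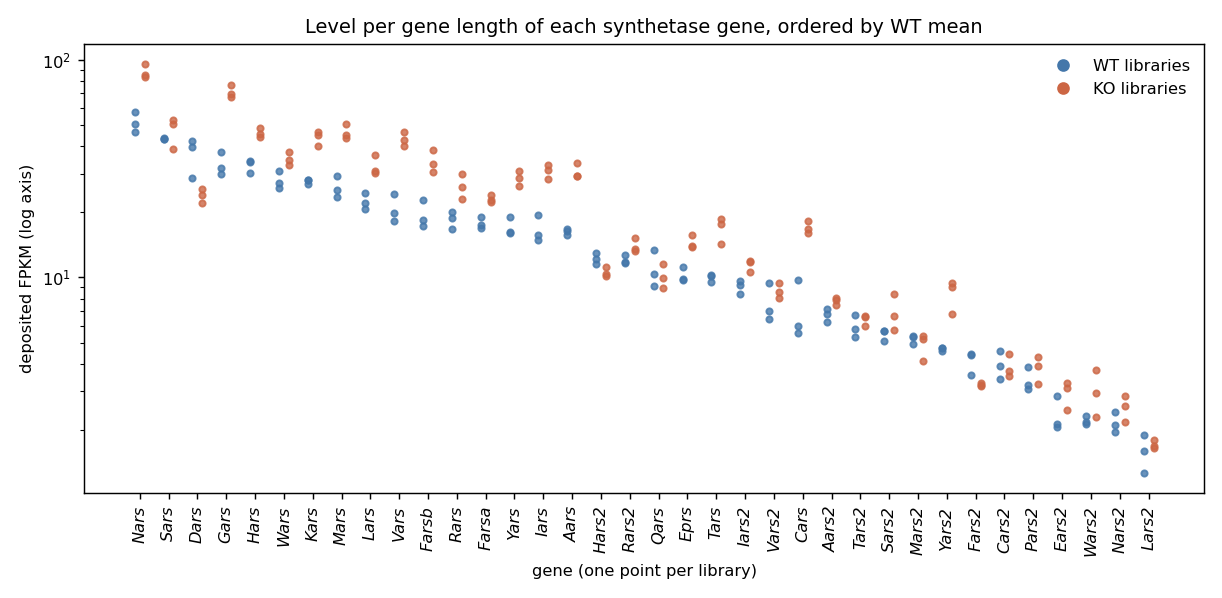
Deposited FPKM (log axis) of 36 of the 37 genes in each WT and KO library, 1 point per library, ordered by the WT mean. Nars is highest at 51.4 FPKM in WT, most mitochondrial genes stand in the lower part, and the KO points of Dars lie below its WT points.

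The gene length in the deposited table was above that of the protein-coding transcript with the longest coding sequence (GENCODE M21) for 33 of the 37 genes, below it for 3 (Hars, Lars and Nars) and equal for Mars2. Some genes move in the order with the length used. Eprs has 18102 bases in the table and 4906 in that transcript, and it stood at place 20 by FPKM and at place 8 per length of that transcript. Sars, with 5142 and 1866 bases, was first by the latter. Dars, Kars, Wars and Nars followed at places 2, 3, 4 and 5, and Gars and Hars stood at places 7 and 10. The order at the top by FPKM thus depends on the length used. The median mitochondrial level was 0.247 of the median cytosolic level by FPKM in WT and 0.3 by transcript length. Comparisons of a gene between libraries do not depend on its length.

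Other genes of tRNA charging and translation moved less uniformly. Of 10 charging, editing and accessory factors 1 rose and 2 fell, near the shares over all tested genes (13.5% higher and 15.5% lower). The tRNA export factor gene Xpot rose (log2 fold change 0.47, SE 0.10, adjusted p = 0.0163). Sepsecs, which completes selenocysteine on its tRNA, and Dtd2, which removes mischarged residues, fell (-0.47, SE 0.12, and -0.72, SE 0.21). The call of Xpot ended without WT 6, WT 7 or KO 2 (0.42 to 0.46, adjusted p = 0.0611 to 0.0833), and those of Sepsecs (adjusted p = 0.052 to 0.104, and 0.0904 with no filter) and Dtd2 (adjusted p = 0.0622 to 0.133, and 0.0584 with no filter) without any library other than WT 3.

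Of the 4 genes of mitochondrial glutaminyl-tRNA amidation and formylation 1 rose, against 13.5% of all tested genes. Qrsl1, the amidase subunit gene, rose from 10.9 ± 0.976 to 19.5 ± 3.87 CPM (SD, n = 3 each, log2 fold change 0.84, SE 0.20). This call ended without WT 6, WT 7, KO 1 or KO 2 (adjusted p = 0.0565 to 0.0808). Gatc (-0.24, SE 0.11) and Mtfmt (-0.27, SE 0.13) did not pass. Of 10 mitochondrial translation factors 4 rose (40.0%, against 13.5% of all tested genes), with a median of 0.14. They include the elongation factors Tufm (0.51, SE 0.09), Tsfm (0.85, SE 0.16) and Gfm1 (0.48, SE 0.14), of which Gfm1 lost its call without any library other than KO 3 (adjusted p = 0.059 to 0.117). The other one was Lrpprc, an RNA-binding protein gene named after its value was seen (0.44, SE 0.13, adjusted p = 0.0415), whose call also ended without any library other than KO 3 (adjusted p = 0.0646 to 0.124) and with no filter (adjusted p = 0.0594). Of 7 cytosolic elongation factors 1 rose (14.3%, near the 13.5% of all tested genes). It was Eif5a, from 343 ± 20.1 to 759 ± 114 CPM (1.15, SE 0.15, adjusted p = 0.00293). Eef1a2, an isoform of neurons and muscle, stood at 17.9 ± 18.0 CPM for WT against 71.7 ± 19.1 CPM for KO and did not pass (2.01, SE 0.66, adjusted p = 0.0602). Among the fits that left out a library it passed only without WT 3 (3.25, adjusted p = 0.000243). With all libraries it passed with no filter (adjusted p = 0.00821), in DESeq2 (adjusted p = 0.0418), in limma-voom (adjusted p = 0.000646) and in limma on both FPKM scales (adjusted p = 0.03 and 0.0335).

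In the ATF4 branch of the integrated stress response 8 of 20 genes rose and 1 fell, with a median log2 fold change of 0.44. Over all tested genes 13.5% rose and 15.5% fell. The other 11 genes of the list did not pass. Named after their values were seen, they include Ddit3 (-0.14, SE 0.27), Ppp1r15a (-0.01, SE 0.26), Atf5 (0.02, SE 0.32), Trib3 (0.45, SE 0.65) and Psat1 (0.44, SE 0.15). Asns, which makes asparagine, measured 48.6, 31.2 and 28.5 CPM for WT against 102, 149 and 133 CPM for KO (3.55-fold, log2 fold change 1.83, SE 0.24, adjusted p = 0.00326). Mthfd2, of mitochondrial folate metabolism, rose from 9.18 ± 3.89 to 63.9 ± 16.7 CPM (SD, n = 3 each, 2.80, SE 0.33), and the translation initiation factor gene Eif2s1 from 55.7 ± 3.55 to 111 ± 11.7 CPM (0.99, SE 0.12). Atf4 itself, singled out after its values were seen, measured 118, 126 and 142 CPM for WT against 198, 214 and 204 CPM for KO (0.67, SE 0.11, adjusted p = 0.00553). Phgdh, of serine synthesis, also named after its value was seen, was the 1 that fell (-0.80, SE 0.19, adjusted p = 0.0224), a call that ended without WT 6, WT 7, KO 1 or KO 3 (-0.80 to -0.61, adjusted p = 0.0544 to 0.0821).

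Of 12 amino acid transporter genes 8 rose (66.7%, against 13.5% of all tested genes), with a median of 0.69. Slc7a1, a carrier of cationic amino acids, went from 39.6 ± 8.37 to 164 ± 24.5 CPM (SD, n = 3 each, log2 fold change 2.05, SE 0.19, adjusted p = 0.00136). Slc1a5, a carrier of glutamine and other neutral amino acids, rose by 2.07 (SE 0.46), and Slc43a1, of large neutral amino acids, rose 2.30-fold (SE of the log2 value 0.25). The calls of Slc1a5 (1.78 to 1.88, adjusted p = 0.0571 to 0.0663, without WT 6, WT 7 or KO 2) and Slc43a1 (1.11 to 1.14, adjusted p = 0.056 to 0.0638, without WT 6 or WT 7) depended on single libraries.

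In the Myc family 1 of 10 genes rose and 5 fell, against 13.5% and 15.5% of all tested genes. Mxd3, a Mxd gene of cycling cells, rose from 2.35 ± 0.764 to 22.7 ± 3.76 CPM (SD, n = 3 each, log2 fold change 3.28, SE 0.29). Mxd4 (-0.96, SE 0.12) and Mxd1 (-1.09, SE 0.20) fell. Mxd3, Mxd4 and Mxd1 all encode antagonists of Myc, so these antagonists moved in both directions. The other genes that fell, named after their values were seen, were Max (-0.61, SE 0.11), the shared partner of the family, Mycl (-1.09, SE 0.28) and Mxi1 (-1.12, SE 0.30). The call of Mycl ended without WT 6, KO 1 or KO 2 (adjusted p = 0.0502 to 0.0926), and that of Mxi1 without WT 6, WT 7, KO 1 or KO 2 (adjusted p = 0.063 to 0.111). Myc, singled out after its values were seen, measured 47.3, 85.6 and 84.0 CPM for WT against 73.1, 99.3 and 81.9 CPM for KO and did not pass (0.23, SE 0.24, adjusted p = 0.489). Among the cell cycle genes, all of which rose, the replication genes Mcm2, Cdc6 and Mcm3 had the lowest p-values (3.02, SE 0.15, then 3.71, SE 0.23, and 3.08, SE 0.19). No relation of the synthetase genes to any of these lists was tested.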

How the data were processed

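Sequencing reads were aligned with HISAT2 2.0.5 and counted with featureCounts 1.5.0-p3 on mm10, per the submitters' processing notes, which also name DESeq2 1.16.1. No source used here gives the settings, strand use or annotation release. In the deposited table are whole-number read counts, not normalised, and FPKM values that the authors derived from counts, gene length and library total. The FPKM columns carry the count columns' headers, and their unit was settled by recomputation. All 222 FPKM values of the 37 genes gave back their counts within 0.05 reads.

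WT and KO were compared in 1 fit of all 6 libraries without covariates, using edgeR 4.0.16 in R 4.3.3 (TMM, filterByExpr, two-sided quasi-likelihood F test, Benjamini-Hochberg over 16606 genes, threshold 0.05). The SE is the absolute log2 fold change divided by the square root of F. CPM use library totals and TMM factors. At these depths 3 reads are 0.136 to 0.179 CPM. The scripts were tested on simulated data. Alternatives were other scalings and filters, DESeq2 1.42.0, limma 3.58.1 on voom or log2(FPKM + 1 or 0.1) values, a test against 1.5-fold, and leaving out each library. Members and lists were chosen with earlier results of these data known. Named genes are all members, Ash2l, and the 3 of lowest p in each related list. Values of 1 mitochondrial gene and 1 promoter site are not reported here, and group counts include that gene unless 16 genes or 13 pairs are named.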

Additional observations from a re-analysis of the deposited data

How the results depend on the processing

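No paired analysis was possible because the groups share only the replicate number 3. With each library left out in turn, 11 to 14 cytosolic synthetase genes passed as higher and 0 to 1 as lower, with medians of 0.59 to 0.70, while 6.04% to 20.2% of all tested genes passed as higher. For the mitochondrial genes the range was 0 to 2 higher and 0 to 1 lower, with medians of 0.09 to 0.23. The count over all genes was 2178 (without WT 6) to 6641 (without WT 3), against 4812. Of the 16 members called higher, 11 were kept whichever library was left out and under every alternative that keeps all libraries except the test against 1.5-fold, namely Aars, Cars, Farsb, Gars, Iars, Kars, Mars, Nars, Tars, Vars and Yars. That test called 4 cytosolic genes higher and 0 lower, 0 mitochondrial genes higher, and 1522 genes in all. Mitochondrial genes called higher numbered 2 with RLE factors, a filter of 1 CPM in 3 libraries, DESeq2, limma-voom and both FPKM scales, and 3 with library totals only, against 1. Of all tested genes 14.1%, 14.4%, 14.7%, 24.9%, 15.9% and 15.6% were called higher in those fits in that order (FPKM + 1 before FPKM + 0.1), and 14.8% with library totals. Limma-voom called 8052 genes in all and 2 mitochondrial genes lower. Signs turned for genes near 0 that were not called, Cars2 with limma-voom (0.0041), Lars2 without WT 6 (-0.07, and up to 0.17 over the libraries left out), Tars2 without WT 7 (-0.02, up to 0.11), Sars without KO 3 (-0.0022, up to 0.23) and Myc without WT 3 (-0.0011, up to 0.36). Library totals shifted the median of all genes by 0.06. Causes of these changes were not tested. With 3 libraries a group, mitochondrial genes near 10 CPM carry standard errors of about 0.20, as for Pars2 (0.20) and Ears2 (0.21), so shifts of that size were not detectable.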
